A study of Mus musculus with 6 samples.

Results

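Fibrillar collagens are the collagens that assemble into the banded fibrils of connective tissue. The chains described here were picked out of the table by gene name: Col1a1, Col1a2, Col3a1, Col5a1, Col5a2, Col5a3 and Col11a1, 7 of the 22880 genes in the deposited table. Each was matched by a single row, and all 7 passed the filter on low counts that left 12014 genes for testing. Col1a1, Col3a1 and Col5a2 were higher in every HIF-1α-KD library than in every Mock library, by 3.96-fold, 2.13-fold and 2.08-fold. Such groups without overlap in the higher direction were found for 10.4% of tested genes, and no chain passed limma's adjusted p under 0.05. At an unadjusted p under 0.05 with a fold of at least 1.5, these 3 chains were called higher, as were 4.02% of tested genes. In contrast, Col1a2, Col5a1, Col5a3 and Col11a1 overlapped between the groups. The library Mock 1 held the lowest count of 6 of the 7 chains, and without it the fold change of Col1a1 dropped to 2.24, while the log2 difference of Col5a1 dropped to 0.08 and those of Col1a2, Col5a3 and Col11a1 turned negative.

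RNA was sequenced from MC-38GFP cells, a mouse colon carcinoma line carrying a fluorescent protein, sorted from orthotopic tumors that had grown in the cecum wall of C57BL/6 J mice. The 3 Mock and the 3 HIF-1α-KD libraries came from cells transduced with the pLKO.1-puro vector, without in vivo passaging, and they differed in whether the knockdown was labelled mock or HIF-1 alpha. According to the study's methods the sort kept GFP-positive cells without CD45 (a leukocyte marker) or CD31 (an endothelial marker). The study describes HIF-1α activity in the host stroma as normal. Neither the mouse ages nor whether a library was from 1 tumor or from pooled tumors are given in the sources used here, so the p-values measure the spread between these libraries, which may be in part technical.

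Reads on genes were between 19845796 and 30809333 per library. Hif1a, the targeted gene and the oxygen-regulated subunit of the hypoxia-inducible factor, had 6914, 5424 and 4945 normalized counts in Mock 1, 2 and 3 and 697.3, 3142 and 1928 in HIF-1α-KD 1, 2 and 3. All HIF-1α-KD libraries were below all Mock libraries, with the lowest count in HIF-1α-KD 1, and the difference was -1.82 ± 0.46 on the log2 scale (SE, n = 3 per group, limma adjusted p = 0.219). The cell type in the labels was checked against its markers. Colon epithelium markers were low in all libraries, with a summed value of 10 genes between 2.30 and 19.6 FPKM (fragments per kilobase of gene width, scaled to the reads of the library), highest in Mock 3. Cdx2, a transcription factor of intestinal epithelium, reached at most 0.042 FPKM, and Epcam, an epithelial adhesion molecule, at most 0.719 FPKM, so defining markers of colon epithelium were nearly absent from cells of a colon carcinoma line.

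A fibrillar collagen molecule is a rod of 3 chains wound into a triple helix. Type I collagen is normally built from a pair of α1 chains (Col1a1) and a single α2 chain (Col1a2), type III from α1 chains of Col3a1 only, and type V from mixtures of the chains of Col5a1, Col5a2 and Col5a3. Type I is the bulk of most fibrils, type III is mixed with it in extensible tissues, and the minor types V and XI set the start and the diameter of a fibril. In tumors these chains are best known as products of fibroblasts, and they are also expressed by tumor cells with mesenchymal features.

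Most of the chains hold a sequence feature that the choice of genes did not use. The miR-29 family is a group of microRNAs known to bind collagen mRNAs, and its 3 members have the same seed, bases 2 to 8 of the mature RNA, shown in capitals as RefSeq gives them (GRCm38.p6). They are printed because their complement was searched in the 3′ UTR of each chain.
mmu-miR-29a-3p: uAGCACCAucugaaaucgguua
mmu-miR-29b-3p: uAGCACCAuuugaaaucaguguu
mmu-miR-29c-3p: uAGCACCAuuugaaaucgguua

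A complement of the whole seed was found in the 3′ UTR of the longest coding transcript (GENCODE M21) of 6 of the 7 chains. Col5a1 held 4 such matches, Col5a3 held 3, Col11a1 held 2, and Col1a1, Col3a1 and Col5a2 held 1 each. No match to these 7 bases was found in the 882 bases of the Col1a2 3′ UTR. Over 20954 genes, 12.98% of 3′ UTRs, with a median length of 938 bases, held a match, and the 3′ UTRs of the chains were between 785 and 2498 bases long. The sites of the 3 chains that were higher in HIF-1α-KD cells, and the first site of Col5a3, which was not, are given with the match in capitals. The microRNAs were not measured in these libraries, and a match is a description of the letters only.
Col1a1, chr11:94952527-94952555, + strand, GRCm38: gaaggaatttcTGGTGCTatagaagctga
Col3a1, chr1:45348971-45348999, + strand, GRCm38: aaatgtctcaaTGGTGCTataataaataa
Col5a2, chr1:45374955-45374983, - strand, GRCm38: tcttttaatgaTGGTGCTaaaattatttc
Col5a3, chr9:20770770-20770798, - strand, GRCm38: catgggctcctTGGTGCTgaggctctgag

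On the normalized count scale, which divides the reads of a gene by 1 factor per library, the major fibril chains were among the most read genes of the table. By reads summed over the 6 libraries Col3a1 ranked 5 and Col1a1 ranked 9 among the 12014 tested genes. Compared per length, as mean FPKM over the 6 libraries, Col3a1 was highest (3276 FPKM), before Col1a1 (1937 FPKM), Col1a2 (361 FPKM), Col5a2 (224 FPKM), Col5a1 (201 FPKM), Col5a3 (138 FPKM) and Col11a1 (3.36 FPKM). This order depends on the deposited width: per length of the longest coding transcript, in reads per kb scaled to the reads on genes, the means of Col5a1 (113), Col5a3 (113) and Col5a2 (101) stood in another order, while Col3a1 (1066), Col1a1 (581) and Col1a2 (151) kept theirs. In Mock cells Col5a1 (166 ± 87.1 FPKM, SD, n = 3), Col5a2 (148 ± 66.9 FPKM) and Col5a3 (138 ± 63.2 FPKM) were closer to each other than their own spread. Col11a1 lay more than an order of magnitude below the other chains, at the 22.8 percentile of tested genes, whereas the other 6 chains were at the 93.2 percentile or above.

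Col1a1, which encodes the α1 chain of type I collagen, had 9848, 62850 and 47070 normalized counts in Mock 1, 2 and 3, and 186200, 107200 and 90650 in HIF-1α-KD 1, 2 and 3. The groups did not overlap, with the lowest count in Mock 1 and the highest in HIF-1α-KD 1. The lowest HIF-1α-KD library was 1.44 times the highest Mock library. The fold change was 3.96 (log2 difference 1.99 ± 0.62 SE, n = 3 per group, limma unadjusted p = 0.0111, adjusted p = 0.287 over all tested genes). Col1a1 (ENSMUSG00000001506) is on the + strand of chromosome 11, from 94936224 to 94953042 in GRCm38.

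Col1a2, the α2 chain that completes the type I trimer, had 7513, 29660 and 22420 normalized counts in the Mock libraries, against 14810, 20230 and 23670 in the HIF-1α-KD libraries. Mock 1 was lowest and Mock 2 highest, so the HIF-1α-KD values lay inside the Mock range. The difference was 0.17 ± 0.45 on the log2 scale (adjusted p = 0.905). The partner chains of type I collagen therefore had separate patterns over the same libraries: HIF-1α-KD 1, the library with the most Col1a1, held the lowest Col1a2 of its group.

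Col3a1, the only chain of type III collagen, had 64990, 135100 and 84960 normalized counts in the Mock libraries, against 206400, 194900 and 179700 in the HIF-1α-KD libraries. All HIF-1α-KD libraries were above all Mock libraries, and they spread over 1.15-fold compared with 2.08-fold in Mock. The fold change was 2.13 (log2 difference 1.09 ± 0.26 SE, n = 3 per group, limma unadjusted p = 0.00261, adjusted p = 0.206).

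**Figure D1:**
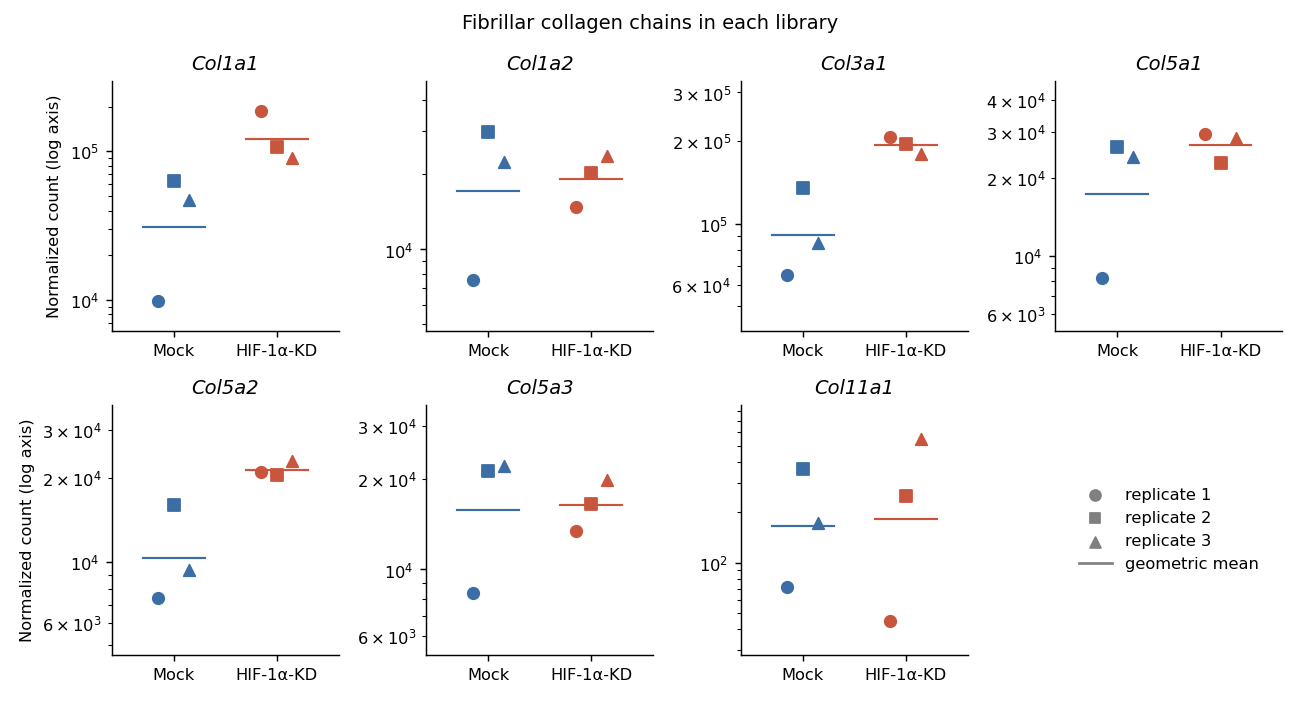
Normalized count (vertical log axis, a separate range per panel) of each fibrillar collagen chain in the 3 Mock and 3 HIF-1α-KD libraries; points are libraries, with a symbol per replicate number, and the line is the geometric mean. Col1a1, Col3a1 and Col5a2 show no overlap between groups, and Mock replicate 1 is the lowest library for all chains except Col11a1.

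Col5a2, which encodes the α2 chain of type V collagen, had 7388, 15980 and 9374 normalized counts in the Mock libraries, against 21070, 20510 and 23050 in the HIF-1α-KD libraries. The groups did not overlap, and the HIF-1α-KD libraries lay within 1.12-fold of each other. The fold change was 2.08 (log2 difference 1.06 ± 0.26 SE, n = 3 per group, limma unadjusted p = 0.00281, adjusted p = 0.21). Col3a1 and Col5a2 are neighbors on chromosome 1 on opposite strands, with their 3′ ends facing each other over 24614 bases, and their log2 values were the most alike of all 21 pairs of chains (r = 0.985 over 6 libraries).

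Col5a1, the α1 chain found in most type V trimers, had 8206, 26350 and 24140 normalized counts in the Mock libraries, against 29470, 22790 and 28400 in the HIF-1α-KD libraries. Mock 1 was far below the other 5 libraries, which overlapped. Its difference of 0.62 ± 0.40 on the log2 scale did not pass (adjusted p = 0.552).

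Col5a3, the α3 chain of type V collagen with a more restricted tissue pattern, had 8333, 21290 and 22000 normalized counts in the Mock libraries, against 13460, 16430 and 19820 in the HIF-1α-KD libraries. The HIF-1α-KD libraries were inside the Mock range, and the difference was 0.06 ± 0.35 on the log2 scale (adjusted p = 0.96).

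Col11a1, a minor chain of cartilage fibrils and of some tumor stroma, had 71.4, 361.7 and 172.7 normalized counts in the Mock libraries, against 45.04, 249.4 and 548.7 in the HIF-1α-KD libraries. The lowest and the highest library were both HIF-1α-KD, 12.2-fold apart, so that the difference of 0.16 ± 0.87 on the log2 scale (adjusted p = 0.954) was smaller than its error.

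With limma and adjustment over all tested genes, 0 of the 7 chains passed adjusted p under 0.05 in either direction, where 0.00832% of tested genes were called higher and 0.383% lower. At an unadjusted p under 0.05, 3 chains passed, and these 3 were also at least 1.5-fold higher; by this criterion 4.02% of tested genes were called higher and 3.46% lower, and 0 chains lower. The same 3 chains had groups without overlap, as did 10.4% of tested genes in the higher and 8.75% in the lower direction. The quasi-likelihood test of edgeR on recovered reads called 0 chains at adjusted p under 0.05. The Wald test of DESeq2 on the same reads called Col3a1 (adjusted p = 0.00399) and Col5a2 (adjusted p = 0.0133) but not Col1a1 (adjusted p = 0.18), with 0.799% of genes called higher. The median log2 difference of the 7 chains was 0.62, compared with 0.02 over all tested genes.

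Mock 1 was examined separately, since it held the lowest count of nearly every chain. Relative to the mean of Mock 2 and Mock 3 on the log2 scale, Mock 1 was lower by -2.47 for Col1a1, -1.79 for Col11a1, -1.78 for Col1a2, -1.62 for Col5a1 and -1.38 for Col5a3. For Col3a1 and Col5a2 the differences were -0.72 and -0.73. The chains therefore fell into a strongly low set, at 17.9% to 38.5% of the mean count of Mock 2 and Mock 3, and a less low pair at 59.1% and 58.3%. Of all 12014 tested genes, 8 were further down in Mock 1 than Col1a1, whereas 8.77% were further down than Col3a1. The median difference of Mock 1 was 0.00 over all tested genes. Mock 1 was singled out because the chains were low there, so these values are a description of that library.

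**Figure D2:**
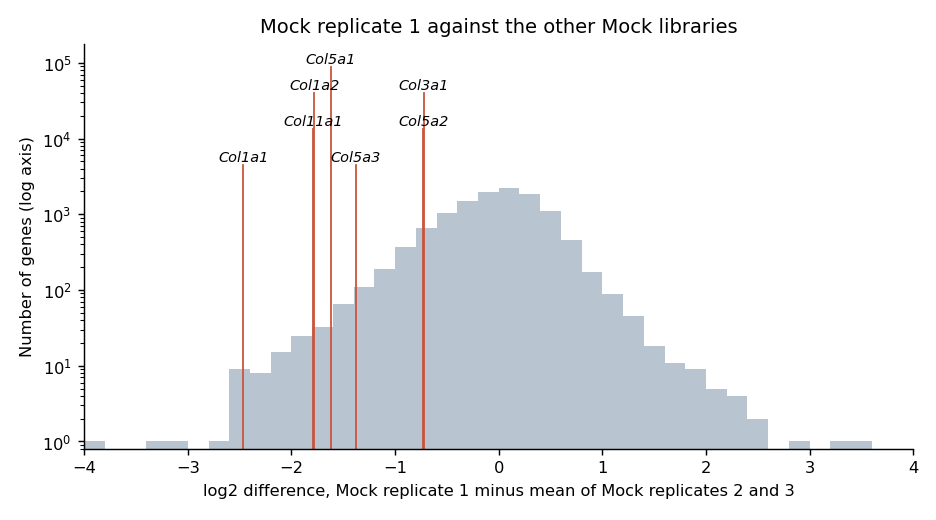
Distribution over 12014 tested genes of the log2 difference between Mock replicate 1 and the mean of Mock replicates 2 and 3 (bars, number of genes on a log axis, bins of 0.2; values beyond 4 are drawn in the end bins). The red lines mark the 7 chains, from -2.47 for Col1a1 to -0.72 for Col3a1, all left of the center of the distribution.

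The difference of Mock 1 from the other Mock libraries also varied with the GC content of genes. In the third of tested genes with the highest GC content its median log2 difference was -0.33, compared with 0.18 for Mock 2 and 0.17 for Mock 3 taken the same way, and in the third with the lowest GC content it was 0.26, compared with -0.08 and -0.16. For transcripts of 5 kb or more the median difference was -0.04 in Mock 1, 0.22 in Mock 2 and -0.12 in Mock 3. In Mock 1, 6.51% of these long transcripts were lower by more than 1, compared with 3.06% of shorter ones, and the longest coding transcripts of all 7 chains are over 5 kb. The part of length and GC content in the low values of Mock 1 was not tested. The chains had GC contents from 44.7% (Col11a1) to 60.4% (Col5a3), around the median of 50.6%, with Col11a1, Col5a2, Col1a2 and Col3a1 below it and Col1a1 (54.5%), Col5a1 (56.7%) and Col5a3 above it. After a loess correction for GC content the differences of Col1a1, Col3a1 and Col5a2 between groups were 1.92, 1.08 and 1.06 on the log2 scale, close to the uncorrected values.

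Without Mock 1, the comparison rested on 2 Mock and 3 HIF-1α-KD libraries. Col1a1 was then 1.16 ± 0.31 higher on the log2 scale (limma adjusted p = 0.451), Col3a1 0.85 ± 0.23 (adjusted p = 0.448) and Col5a2 0.81 ± 0.23 (adjusted p = 0.467). These 3 chains again passed the unadjusted criterion, where 2.01% of tested genes were called higher. The log2 difference of Col5a1 dropped from 0.62 to 0.08 ± 0.16 without Mock 1. The differences of Col1a2 (-0.42 ± 0.23), Col5a3 (-0.40 ± 0.18) and Col11a1 (-0.44 ± 0.94) changed sign, and none of the 3 passed either criterion (adjusted p = 0.668, 0.615 and 0.932). The median difference of the 7 chains dropped to 0.08.

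**Figure D3:**
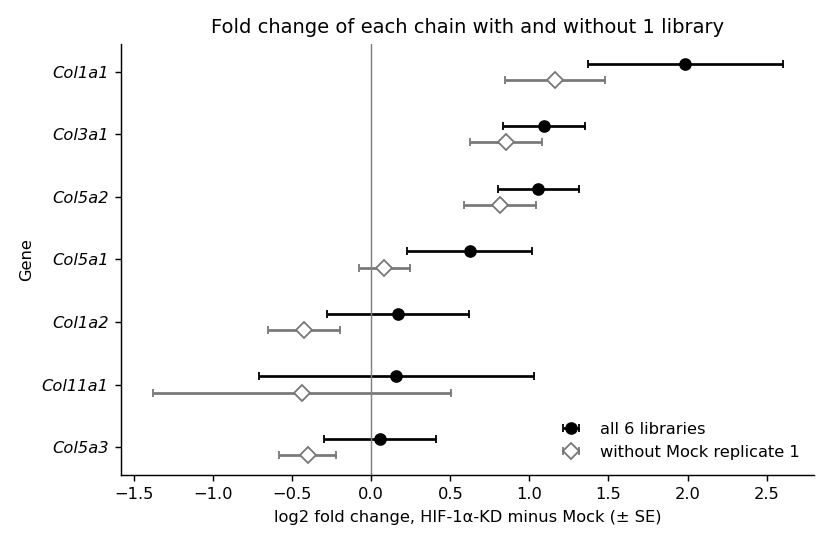
Log2 fold change of each chain, HIF-1α-KD minus Mock (horizontal axis, bars are SE), with all 6 libraries (filled) and without Mock replicate 1 (open). Col1a1, Col3a1 and Col5a2 stay above 0 at 1.16, 0.85 and 0.81, whereas Col1a2, Col5a3 and Col11a1 move from just above 0 to between -0.44 and -0.40.

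The spread within a group was wider in Mock than in HIF-1α-KD for 6 of the 7 chains, and without Mock 1 for 2 of the 7, Col3a1 and Col5a2. The SD of Col1a1 on the log2 scale was 1.44 in Mock (0.29 without Mock 1) and 0.54 in HIF-1α-KD, and that of Col3a1 was 0.53 (0.47 without Mock 1) and 0.10, compared with medians of 0.25 and 0.21 over all tested genes. Col11a1 was the exception, with 1.16 in Mock and 1.83 in HIF-1α-KD. In Mock, each of the 7 chains was more variable than at least 88.2% of tested genes, a placing that includes Mock 1, without which the SD of Col5a1 was 0.0894 instead of 0.94 and that of Col5a3 was 0.0335 instead of 0.80. In HIF-1α-KD the chains ranged from Col5a2, with an SD above that of 14.1% of tested genes, to Col1a1 at 85.3% and Col11a1 at 99.3%.

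The ratio of partner chains was compared on FPKM values, since it needs levels per length. The Col1a1 to Col1a2 ratio was 1.65, 2.67 and 2.64 in Mock 1, 2 and 3 and 15.8, 6.67 and 4.82 in HIF-1α-KD 1, 2 and 3. All HIF-1α-KD libraries were above all Mock libraries, by 3.52-fold on average (log2 difference 1.82; exact permutation test, two-sided, p = 0.1, the smallest that 3 against 3 libraries can give, and 0.3 adjusted over 3 ratios). Without Mock 1 the log2 difference was 1.59, and without HIF-1α-KD 1 it was 1.32. The deposited width used for FPKM is 1780 bases for Col1a1 and 2240 for Col1a2, near the mean length of all annotated transcripts, while their longest coding transcripts have 5930 and 5348 bases. Per length of the longest coding transcript the same ratio was 1.18, 1.91 and 1.89 in Mock, against 11.3, 4.78 and 3.45 in HIF-1α-KD. A change of length multiplies the ratio equally in all libraries, so it bears on the level of the ratio and cannot alter the difference between groups.

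The Col3a1 to Col1a1 ratio, type III against type I, was 6.49, 2.11 and 1.78 in Mock, against 1.09, 1.79 and 1.95 in HIF-1α-KD. The groups overlapped, and Mock 1 stood above the other 5 libraries (log2 difference -0.89, exact permutation p = 0.3, 0.4 adjusted over 3 ratios). Without Mock 1 the difference was -0.31. The Col5a1 to Col5a2 ratio was 0.70, 1.04 and 1.62 in Mock, against 0.88, 0.70 and 0.78 in HIF-1α-KD, and the groups overlapped through Mock 1 (log2 difference -0.43, exact permutation p = 0.4, 0.4 adjusted). Without Mock 1 they did not overlap, and the difference was -0.73. With 3 against 3 libraries this exact test cannot give a p under 0.1.

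**Figure D4:**
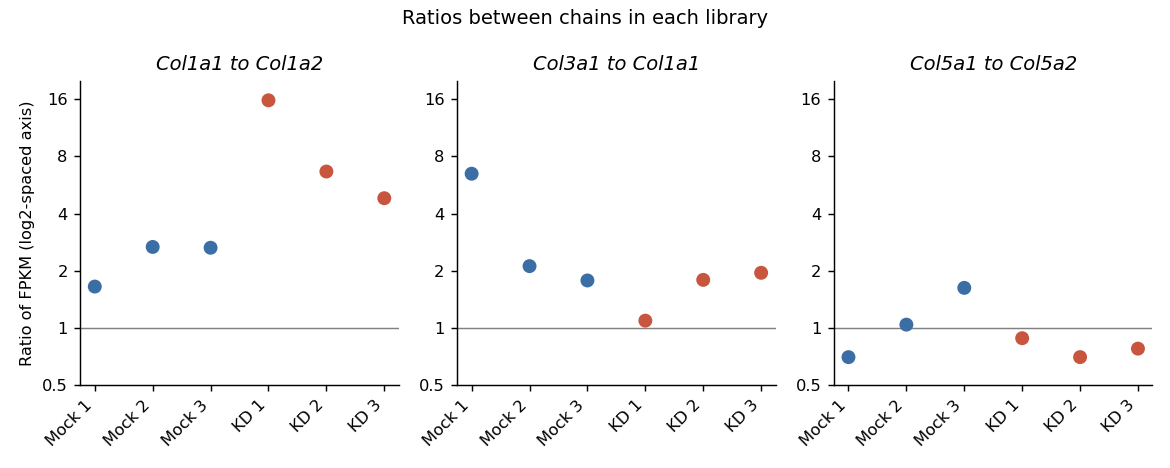
Ratio of FPKM between 2 chains (vertical axis, log2-spaced; the grey line is a ratio of 1) in each library, Mock in blue and HIF-1α-KD (KD) in red. The Col1a1 to Col1a2 ratio is 1.65 to 2.67 in Mock and 4.82 to 15.8 in HIF-1α-KD, whereas the other ratios overlap between groups.

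As a share of all reads on genes the 7 chains took 0.415%, 1.21% and 0.823% in Mock 1, 2 and 3 and 1.90%, 1.61% and 1.54% in HIF-1α-KD 1, 2 and 3. The groups did not overlap, and Mock 1 held the smallest share. Col1a1 and Col3a1 together made up 62.8% to 70.4% of these reads in Mock and 73.9% to 83.3% in HIF-1α-KD. Per length of the longest coding transcript, Col1a1 was 9.12% of the summed chain level in Mock 1, 21.4% and 22.5% in the other Mock libraries and 24.6% to 39.2% in HIF-1α-KD. Col1a2 was 7.72% to 11.9% of it in Mock and 3.45% to 7.12% in HIF-1α-KD.

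**Figure D5:**
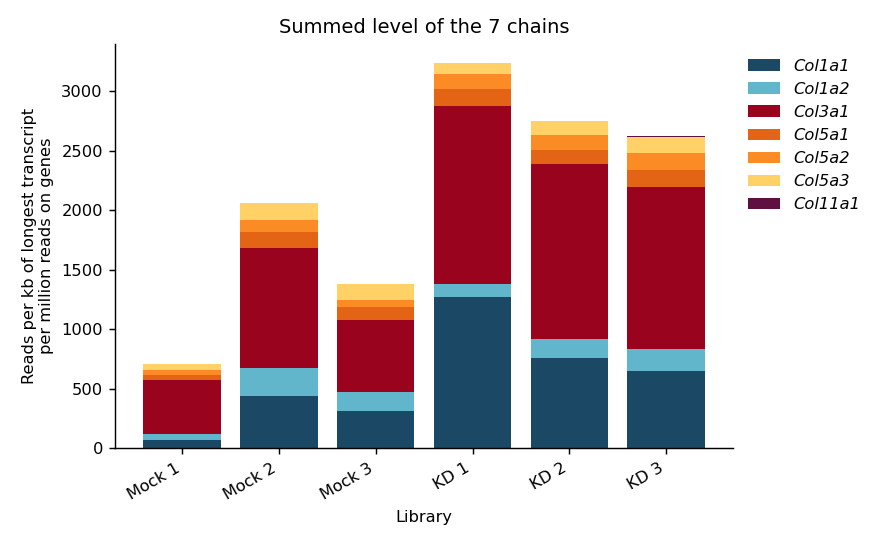
Level of each chain (reads per kb of its longest coding transcript scaled to the reads on genes of the library, stacked) in each library; KD is HIF-1α-KD. The summed level is 710 in Mock 1, 2062 and 1382 in Mock 2 and 3, and 2621 to 3235 in HIF-1α-KD, and Col11a1 is too low to be seen in most bars.

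Over the 6 libraries the chains did not vary as a single unit. Pearson correlations of log2 values between chains, given as a description over 6 libraries that share 1 low library, were between 0.166 (Col1a1 with Col11a1) and 0.985 (Col3a1 with Col5a2). Col1a2 and Col5a3 were the next closest pair (r = 0.973), and Col1a1 was close to Col3a1 (r = 0.929) and Col5a1 (r = 0.913). Type I partners Col1a1 and Col1a2 had r = 0.612. The promoters of Col3a1, Col1a2 and Col5a3, 250 bases upstream of the RefSeq start (GRCm38.p6), are printed because these chains stand for the separate patterns. The core of the HIF binding motif, ACGTG or GCGTG on either strand, is in capitals; a match on the opposite strand reads CACGT or CACGC.
Col3a1, chr1:45311288-45311537, + strand: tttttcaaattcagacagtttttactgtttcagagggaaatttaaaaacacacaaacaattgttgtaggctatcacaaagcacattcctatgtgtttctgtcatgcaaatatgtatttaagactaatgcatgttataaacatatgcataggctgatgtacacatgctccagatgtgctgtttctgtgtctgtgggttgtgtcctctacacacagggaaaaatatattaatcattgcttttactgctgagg
Col1a2, chr6:4505368-4505617, + strand: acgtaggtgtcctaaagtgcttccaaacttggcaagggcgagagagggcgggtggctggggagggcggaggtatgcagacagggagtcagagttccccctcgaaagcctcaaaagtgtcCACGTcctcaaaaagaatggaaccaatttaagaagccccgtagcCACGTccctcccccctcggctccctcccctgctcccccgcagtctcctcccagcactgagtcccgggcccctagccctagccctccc
Col5a3, chr9:20815068-20815317, - strand: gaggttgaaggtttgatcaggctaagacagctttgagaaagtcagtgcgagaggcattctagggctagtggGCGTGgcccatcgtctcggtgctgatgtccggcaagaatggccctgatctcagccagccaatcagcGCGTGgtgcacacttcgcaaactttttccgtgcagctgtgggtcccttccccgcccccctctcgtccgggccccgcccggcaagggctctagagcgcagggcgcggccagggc

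Of the 7 chains, 5 had a promoter in the RefSeq table. Col1a1 and Col5a2 had none and were not searched, so Col3a1 is the only searched chain among those higher in HIF-1α-KD cells. The HIF core occurred in 2 places in Col1a2 and in Col5a3, in 1 place in Col5a1 and in none in Col3a1 and Col11a1, and 38.6% of 32851 promoters of this length held it. CCAAT, the box bound by the factor NF-Y, also searched on both strands, was found in Col1a2, Col5a3 and Col11a1 (33.9% of all promoters), and TATAAA, on both strands, in Col3a1 only (12.4% of all promoters). Both matches in Col1a2 were to ACGTG, read on the opposite strand, and both in Col5a3 were to GCGTG. GC contents were 62% in the Col1a2 window and 62.8% in the Col5a3 window, compared with 35.2% in Col3a1. A match of letters is no evidence of binding.

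The 4 other fibrillar chains, which were not among the 7, were low. Col27a1, a chain of cartilage and other matrices, had 102.2, 290.9 and 320.1 normalized counts in Mock, against 481.8, 303.4 and 569.5 in HIF-1α-KD. Col2a1, the cartilage chain, had 7.39, 13.4 and 6.04 in Mock, against 160.1, 22.8 and 32.3 in HIF-1α-KD, without overlap and with the highest value in HIF-1α-KD 1. Col11a2 had 8.62, 61.2 and 18.1 in Mock, against 127.9, 86.3 and 32.3 in HIF-1α-KD. Their log2 differences of 1.04 ± 0.44, 2.41 ± 0.73 and 1.68 ± 0.73 passed the unadjusted criterion but not the adjusted one (limma adjusted p = 0.382, 0.275 and 0.391). Without Mock 1, Col27a1 (0.52) and Col11a2 (1.06) no longer passed, while Col2a1 (2.32) did. Col27a1 was also lost without HIF-1α-KD 1 or HIF-1α-KD 3, and Col11a2 without Mock 3, HIF-1α-KD 1 or HIF-1α-KD 2. Col24a1 was under the filter, with 2 to 9 reads per library.

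Most enzymes and chaperones that fold, hydroxylate and export the chains passed no criterion. Of 20 genes 19 were tested, 3 were called higher and 2 lower by the unadjusted criterion, and the median log2 difference was -0.01. Over all tested genes this criterion called 4.02% higher and 3.46% lower, which is the background for this and the following lists. Higher were Serpinh1, the collagen-specific chaperone (0.79 ± 0.34 on the log2 scale), P3h1, a prolyl 3-hydroxylase (0.66 ± 0.21), and Mia3, which loads procollagen into transport carriers (0.59 ± 0.24). Lower were Plod2, a lysyl hydroxylase of the collagen telopeptides (-0.74 ± 0.17), and P4ha2, a subunit of prolyl 4-hydroxylase (-0.63 ± 0.17). The genes P4ha2 and Plod2 are known targets of HIF-1. Serpinh1 had 324 FPKM in Mock 1, 552 and 698 in the other Mock libraries and 1366, 784 and 672 in HIF-1α-KD 1, 2 and 3, so that Mock 1 was lowest and HIF-1α-KD 1 highest, as for Col1a1. Without Mock 1 the differences of Serpinh1, P3h1 and Mia3 were 0.49, 0.43 and 0.34, and none of the 3 passed. Serpinh1 was also lost without Mock 2 or HIF-1α-KD 1, P3h1 without HIF-1α-KD 1 and Mia3 without HIF-1α-KD 3.

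Among enzymes that remove propeptides, 4 of 10 genes were tested and 0 were called by limma, at the adjusted or the unadjusted criterion, and 0 by edgeR or DESeq2 at adjusted p under 0.05. Pcolce, an enhancer of C-propeptide removal, differed by 0.07 and Bmp1, the C-proteinase, by 0.28 on the log2 scale, and the median of the 4 was 0.23. Of the 5 lysyl oxidases, which cross-link fibrils, 0 were called higher and 1 lower by the unadjusted criterion of limma, with a median of -0.36. Lox had 2.14, 1.04 and 3.44 FPKM in Mock, against 0.90, 0.624 and 0.386 in HIF-1α-KD, without overlap (log2 difference -1.75 ± 0.49, limma adjusted p = 0.253), and it is also a known HIF target. The more abundant Loxl3 and Loxl4 differed by 0.18 and -0.15. Of 23 fibril-associated collagens and proteins 13 were tested, and 1 was called higher, with a median of -0.08 on the log2 scale. This was Col22a1 (1.97 ± 0.66), at no more than 0.223 FPKM in any library. Sparc, a collagen-binding matrix protein, and Fn1, fibronectin, differed by 0.25 and 0.09.

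Of 9 collagen receptors and uptake genes 7 were tested, with Mrc2, the endocytic receptor for collagen fragments, higher (0.73 ± 0.31) and Itga10, a collagen-binding integrin chain, lower (-1.42 ± 0.46), and a median of 0.26. Of 10 collagen-cleaving proteases 6 were tested and 2 were called higher, with a median of 0.30. Mmp9, a gelatinase, had 83.3, 286 and 374 FPKM in Mock, against 1534, 472 and 319 in HIF-1α-KD (1.51 ± 0.66), with the order of libraries close to that of Col1a1 at both ends. Mmp16 was higher by 1.14 ± 0.50 at no more than 1.42 FPKM. Of 17 transcription factors known to act on collagen genes 15 were tested, and 1 was called, Creb3l1, a factor for type I collagen secretion and expression in bone, which was higher (1.92 ± 0.82) with 0.055, 0.644 and 0.255 FPKM in Mock, against 1.84, 0.446 and 0.880 FPKM in HIF-1α-KD, and overlapping groups. Ybx1 and Smad4 differed by 0.07 and -0.18, and the median of the list was -0.05. No gene of these role lists passed limma's adjusted p under 0.05, and the lowest adjusted p was 0.19 (Plod2). With DESeq2 P4ha2 (adjusted p = 0.039), Plod2 (0.00939) and Lox (0.00918) passed as lower and the chain Col2a1 (0.014) as higher. Over 12012 genes DESeq2 called 187 lower and 96 higher (0.799%) at adjusted p under 0.05. With edgeR 0 genes of these lists passed. Of the 19 genes of the lists and of the cell type markers that passed the unadjusted criterion, 4 passed with any 1 library left out (Col2a1, Plod2, Lox, Cspg4), and 11 no longer passed without Mock 1, among them Mrc2 (0.37), Mmp9 (0.87) and Creb3l1 (1.08). Mmp16 also no longer passed, with a log2 difference as large as before (1.16). Over all tested genes the share called higher by this criterion dropped from 4.02% to 2.01% without Mock 1. Mmp9 and Creb3l1 were among the genes also lost without HIF-1α-KD 1.

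The 8 tested genes whose log2 values followed the average profile of the 7 chains most closely were Caskin2 (r = 0.994 over 6 libraries), Stk10 (0.991), Mink1 (0.987), Myo7a (0.987), Cabin1 (0.986), Meaf6 (0.982), Med24 (0.982) and Clip2 (0.981). None of them is a collagen gene or a member of the lists above. Their log2 differences were between 0.14 and 0.65 and did not pass the unadjusted criterion. The average profile was -1.37 in Mock 1 and between -0.11 and 0.62 in the other 5 libraries, so these correlations largely describe Mock 1. Of 12007 other tested genes, 338 had r over 0.9.

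Markers of other cells that make or surround collagen were read beside the chains. Fewer cells of a type, less RNA per cell and expression of its markers by the sorted tumor cells cannot be told apart in these libraries. The summed FPKM of 11 fibroblast markers was 653 to 1257 in Mock and 547 to 957 in HIF-1α-KD, and 0 of the 7 tested were called in either direction by limma, at the adjusted or the unadjusted criterion, and 0 by edgeR or DESeq2. Of these markers Dcn and Lum also stand among the fibril-associated proteins and Fap among the proteases. Dcn, a fibril-binding proteoglycan, was at 345 to 906 FPKM, Cd34 at 132 to 387 FPKM and Pdgfra at 19.6 to 48.4 FPKM over all libraries, while Tcf21 was at 0, and Thy1, Pi16 and Clec3b stayed under 0.5 FPKM. In Mock 1 the fibroblast sum was 706 FPKM, and the part of such cells in the collagen values was not tested.

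The 10 pericyte and smooth muscle markers summed to 24.6, 54.9 and 42.9 FPKM in Mock 1, 2 and 3 and 67.1, 58.5 and 58.9 FPKM in HIF-1α-KD 1, 2 and 3, without overlap and lowest in Mock 1, as for the chains. Of 7 tested, 3 were called higher by the unadjusted criterion, which called 4.02% of all tested genes higher: Cspg4 (1.42 ± 0.47), Rgs5 (1.15 ± 0.40) and Pdgfrb (0.59 ± 0.25). Of the sum, most was Pdgfrb (17.5 to 42.3 FPKM), while Myh11, Kcnj8 and Cnn1 stayed under 0.1 FPKM and Des was at 2.60 to 7.41 FPKM. Without Mock 1 Cspg4 still passed (0.85), whereas Rgs5 (0.88) and Pdgfrb (0.37) did not. Rgs5 was also lost without HIF-1α-KD 1, and with 1 library left out Pdgfrb passed only without Mock 2. The part of such cells in the collagen differences was not tested. Endothelial markers summed to 3.85 to 6.46 FPKM. Of 3 tested, 1 was called lower by the unadjusted criterion, which called 3.46% of all tested genes lower. This was Cdh5 (2.09 to 5.58 FPKM, log2 difference -0.84 ± 0.27). Pecam1 (0.555 to 1.28 FPKM) and Tek (at most 0.513 FPKM) differed in the other direction, by 0.26 ± 0.42 and 1.26 ± 0.68, and did not pass. Leukocyte markers summed to 102 to 112 FPKM in Mock and 70.6, 81.5 and 359 FPKM in HIF-1α-KD 1, 2 and 3, led by Lyz2 (54.5 to 295 FPKM), Cd68 (4.78 to 29.2 FPKM) and Itgam (2.81 to 15.7 FPKM), highest in HIF-1α-KD 3. Without HIF-1α-KD 3 the log2 differences of Col1a1, Col3a1 and Col5a2 were 2.20, 1.15 and 1.01. Lgals4, Krt19 and Krt8, the highest of the colon epithelium markers, were each highest in Mock 3, at 4.26, 4.82 and 4.15 FPKM.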

How the data were processed

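The 6 libraries of sorted MC-38GFP tumor cells were grouped by the knockdown given in their labels (3 Mock, 3 HIF-1α-KD). According to the study's methods the authors aligned reads with STAR and counted them with featureCounts. The methods name a human assembly, whereas the submitters' processing notes list GRCm38, and the gene identifiers are mouse. Whether counting used strand is not given in the sources used here, and no gene in the table overlaps a chain on the opposite strand.

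The authors deposited normalized counts, a signal equal to reads divided by 1 factor per library and printed with 4 digits, and FPKM values per kilobase of a deposited width. For 63.2% of 22570 matched genes this width was within 10 bases of the mean GENCODE M21 transcript length. The deposited GC content is a fraction per gene. The deposited log2 ratio, p-value and false discovery rate are the authors' own comparison and were not used.

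Reads were recovered from the normalized counts: 100% of values up to 300 reads were within 0.1 of a whole number, and larger ones are approximate because of the printed digits. Genes were filtered with filterByExpr of edgeR 4.0.16 (minimum count 10, by group). The main test, two-sided, was the moderated linear model of limma 3.58.1 (trend option on) for log2(normalized count + 1), with Benjamini-Hochberg adjustment over 12014 genes; fold changes of low genes are understated on that scale. The second, unadjusted criterion was p under 0.05 with a fold of at least 1.5. Alternatives were edgeR, DESeq2 1.42.0, other scalings, pseudocounts and filters, FPKM with 0.1 added, length and GC corrections, a replicate block and leaving out each library. Scripts were tested on simulated data.

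The chains and lists were chosen with earlier results of these data known. Named were all chains, Hif1a, in each role list the genes called (at most 5) and, where fewer than 2 were, the 2 with the highest FPKM, the 8 genes most alike and the 3 highest markers of each cell type; markers at or near 0 were named after their values were seen.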

Additional observations from a re-analysis of the deposited data

How the results depend on the processing

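Col1a1, Col3a1 and Col5a2 were above 0 and passed the unadjusted criterion under all 18 alternatives run, and no other chain passed it under any. Their log2 differences ranged from 1.16 to 2.50, 0.85 to 1.38 and 0.81 to 1.37, with adjusted p from 0.18 to 0.482, 0.00399 to 0.448 and 0.0133 to 0.467. With DESeq2, 2 chains passed adjusted p under 0.05, Col3a1 (1.02) and Col5a2 (0.97), and with the other alternatives 0 did. All alternatives drew on the same libraries, so their agreement is not independent. The unadjusted criterion of limma called 4.02% of tested genes higher with all 6 libraries and 2.01% without Mock 1. The smaller differences changed sign: Col1a2 was -0.0408 with edgeR, -0.0299 with DESeq2 and between -0.42 (without Mock 1) and 0.57 when 1 library was left out. Col5a3 was -0.0751 with edgeR, -0.0648 with DESeq2, -0.0931 with the length correction, -0.0135 with the GC correction, -0.40 without Mock 1, -0.0824 without HIF-1α-KD 3 and up to 0.30 without another library. Col11a1 was -0.44 without Mock 1, -0.06 without HIF-1α-KD 2, -0.63 without HIF-1α-KD 3 and up to 1.16 without another library. The cause of these changes was not tested.

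Over all genes, adjusted p under 0.05 called 1 gene higher and 46 lower. The counts were 96 and 187 with DESeq2, 0 and 47 with edgeR, and 0 and 1 with limma without a trend, an alternative chosen after seeing the data. Leaving out 1 library gave 0 to 5 genes higher and 0 to 32 lower (5 and 32 without HIF-1α-KD 1, 0 and 2 without Mock 1, 1 and 10 without Mock 2, 0 and 9 without HIF-1α-KD 3, and 0 and 0 without Mock 3 or without HIF-1α-KD 2); without 1 library the median difference of the chains was 0.08 to 1.05. The log2 differences of the ratios without 1 library were 1.32 to 2.18 for Col1a1 to Col1a2, -1.25 to -0.31 for Col3a1 to Col1a1 and -0.73 to -0.12 for Col5a1 to Col5a2, all of the same sign as with 6 libraries. The length of the longest coding transcript was also chosen for the ratios after seeing the data.

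With the replicate number as a block 0 genes were called higher and 0 lower, and the 3 chains passed the unadjusted criterion. The numbers were not taken as pairing: deviations of same-numbered libraries correlated at -0.139, -0.123 and 0.0228. Scaling moved the median of all genes by at most 0.0561 on the log2 scale.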
